A study of Mus musculus with 15 samples.

Results

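A set of 10 genes that report or tune Notch signalling was followed across the aorta-gonad-mesonephros (AGM) region of the mouse embryo. They are the transcriptional targets Hes1, Hes5, Hes7, Hey1, Hey2, Heyl and Nrarp and the Fringe genes Lfng, Mfng and Rfng, taken by name from the 28876 genes of the expression table. All 10 were among the 18553 genes that reached 0.5 RPM (reads-per-million) in at least 1 library and were tested. RNA sequencing was done on 15 libraries in 5 groups of 3, each library made from tissue pooled from many C57BL/6 embryos in separate experiments. The E9 AoD and E9 AoV groups are the dorsal and the ventral domain of the aorta dissected at E9.5 (embryonic day). E10 AoD, E10 AoV and E10 UGR are the dorsal domain, the ventral domain and the urogenital ridges dissected at E10.5. No group carried a treatment or a named allele. The study set these groups against each other to describe the tissue around developing hematopoietic stem cells, which the ventral domain is known to favour. Because whole dissected tissue was sequenced, fewer cells of a type and less RNA per cell cannot be told apart, and p-values measure the spread between pools.

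Notch is a receptor that is cut after it binds a Delta or Jagged ligand on a neighbouring cell. Its freed intracellular part joins RBPJ and Mastermind on DNA and switches on genes such as those of the Hes and Hey families, which encode basic helix-loop-helix repressors, and Nrarp, which encodes a small ankyrin-repeat protein that dampens the signal. Fringe enzymes work upstream, adding N-acetylglucosamine to O-fucose on the receptor and thereby altering which ligands it answers. In the embryo the pathway is known for arterial identity, for the emergence of blood from the aorta, for the upkeep of neural progenitors and for the clock that paces somite formation.

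Sequence upstream of the start site is shown for Nrarp, Hes5 and Lfng, which are among the genes that fell with stage in the dorsal domain and were higher dorsally at E9.5, because RBPJ and Hes or Hey proteins act through such sequence. RefSeq promoters (table build GRCm38.p6) were found for 6 of the 10 genes, and the 250 bases before each start site matched NCBIM37, the build of the files, at 1 place each. The window is chr2:25036028-25036277 on the plus strand for Nrarp, chr4:154334782-154335031 on the plus strand for Hes5 and chr5:141083045-141083294 on the plus strand for Lfng. Each is written 5′ to 3′ and ends 1 base before the annotated first exon. Capitals mark TGGGAA, the core bound by RBPJ, searched on both strands so that TTCCCA is the same motif, and CACGTG, an E-box that reads the same on both strands.
Nrarp: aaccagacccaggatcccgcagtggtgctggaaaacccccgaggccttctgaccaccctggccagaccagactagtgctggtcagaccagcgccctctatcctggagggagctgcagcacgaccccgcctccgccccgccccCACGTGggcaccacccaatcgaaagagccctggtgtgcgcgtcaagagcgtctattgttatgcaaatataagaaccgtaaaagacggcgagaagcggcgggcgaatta
Hes5: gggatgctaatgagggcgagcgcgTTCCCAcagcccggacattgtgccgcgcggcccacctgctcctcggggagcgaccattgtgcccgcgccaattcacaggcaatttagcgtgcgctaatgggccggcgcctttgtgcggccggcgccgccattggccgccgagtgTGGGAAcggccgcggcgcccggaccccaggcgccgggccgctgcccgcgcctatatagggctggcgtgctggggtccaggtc
Lfng: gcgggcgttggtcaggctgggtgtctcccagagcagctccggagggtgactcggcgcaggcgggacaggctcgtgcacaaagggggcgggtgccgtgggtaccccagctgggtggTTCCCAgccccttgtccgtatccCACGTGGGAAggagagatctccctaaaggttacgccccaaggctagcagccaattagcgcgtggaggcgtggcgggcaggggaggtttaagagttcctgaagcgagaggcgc
Hes5 held TGGGAA on the minus strand at -226 to -221 and on the plus strand at -82 to -77, counted from the base before the start site as -1. Lfng held it on the minus strand at -135 to -130 and on the plus strand at -108 to -103, where it overlaps by 2 bases a CACGTG at -112 to -107. Nrarp held no TGGGAA and 1 CACGTG, at -108 to -103. Of the other promoters in the table, Hey2 and Hes7 held 1 TGGGAA each and Rfng neither motif. In all, 4 of the 6 promoters held TGGGAA, against 24.1% of 27018 genes with a promoter in the table, and 2 held CACGTG, against 6.86%. These matches describe letters in this window and not binding.

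Depth lay between 33.7 and 48.6 megareads (M) per library, worked out from the step between low RPM values, so that 3 reads correspond to 0.0617 to 0.0889 RPM. Every one of the 10 genes stood above that level in all 15 libraries. The lowest values were those of Hes5 in E10 AoV, worth 6.01 to 13.0 reads, and those of Hes7 in E10 UGR, worth 8.98 to 17.0 reads. Endothelial and arterial markers were present in every group, with a sum of 12 genes between 529 and 697 RPM in E9 AoD and between 1203 and 1269 RPM in E10 AoV. The dorsal libraries also held markers of neighbouring tissue: 10 neural tube genes summed to 221 to 401 RPM in E9 AoD and 85.0 to 111 RPM in E10 AoD, against at most 26.2 RPM elsewhere. E9 AoV held gut endoderm and liver markers, 8 genes summing to 487 to 711 RPM, against at most 53.7 RPM in any other group. Sox17 is counted both there and among the 12 endothelial and arterial genes. Nephric and coelomic markers were highest in E10 UGR, with 8 genes summing to 697 to 758 RPM.

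**Figure D1:**
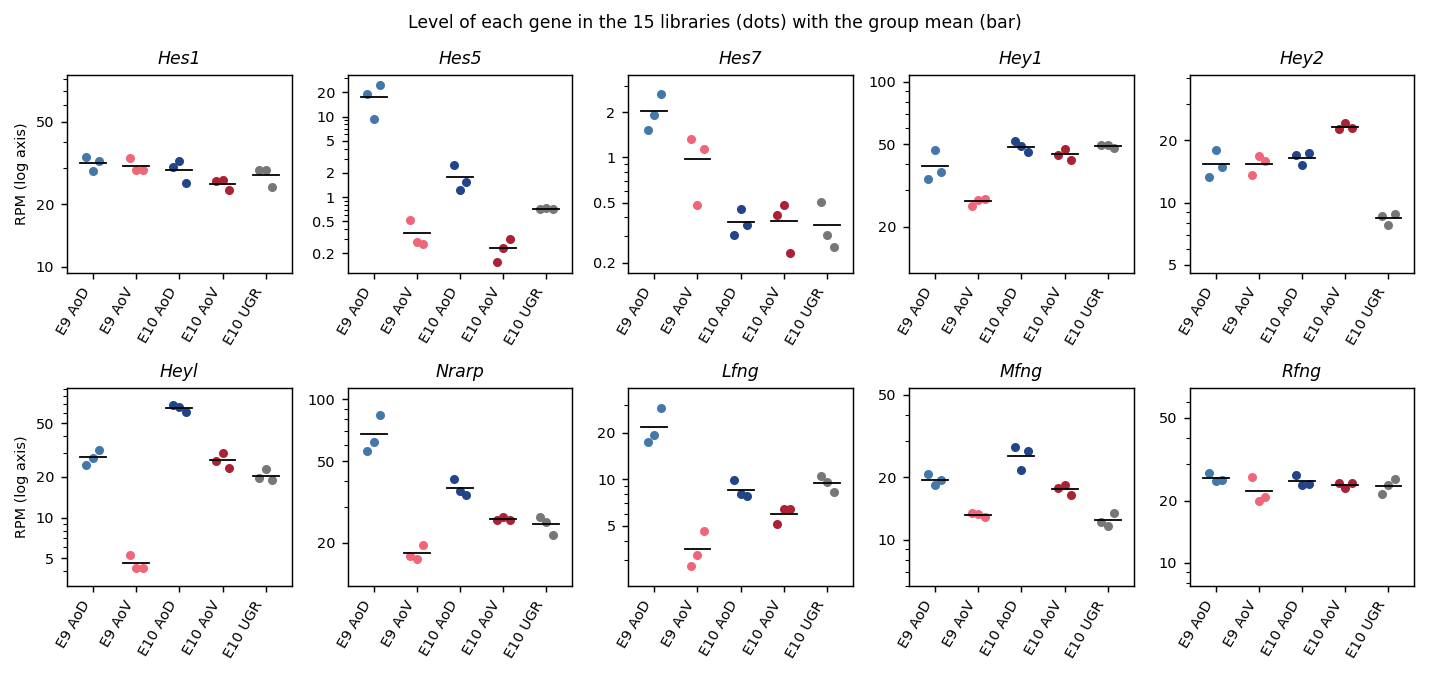
RPM of each of the 10 genes on a log axis, with a dot for each of the 3 libraries of a group and a bar at the group mean. Hes5 spans the widest range, from 0.156 to 24.6 RPM, while Hes1 and Rfng stay between 20.0 and 33.9 RPM in all 15 libraries.

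Below, the 3 values of a group follow replicates 1, 2 and 3. Fold changes are on the log2(RPM + 0.1) scale, fitted by limma with 1 mean per group, and are given with their standard error (SE) and a Benjamini-Hochberg adjusted p over all tested genes. A gene passed when that p was under 0.05 and was called when the change was also at least 1 in size, a fold of 2. On this scale the change of a gene with few reads is understated.

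Hes1 encodes the most widely used Hes repressor and is transcribed in many Notch-active and other tissues (NCBIM37, chromosome 16, 30064470 to 30067882, plus strand). It was 33.9, 29.0 and 32.3 RPM in E9 AoD, 33.3, 29.2 and 29.2 in E9 AoV, then 30.4, 32.3 and 25.4 in E10 AoD, 26.0, 26.1 and 23.4 in E10 AoV and lastly 29.4, 29.3 and 24.3 in E10 UGR. Neighbouring groups overlapped all the way down the order, and the highest group mean was 1.26 times the lowest. The 1 comparison it passed was E10 AoV against E9 AoV, where it fell by 0.28 (SE 0.098, limma adjusted p = 0.0314). That result did not hold without E9 AoV replicate 1 (-0.22, adjusted p = 0.121) or without E10 AoV replicate 3 (-0.23, adjusted p = 0.116). E10 AoV against E10 AoD gave -0.22 and did not pass (adjusted p = 0.105). It passed without E10 AoD replicate 3 (-0.32, adjusted p = 0.0226) and with the replicate number as a block over all groups (-0.22, 0.0415) or within each stage (-0.22, 0.0027), which also took E10 AoV against E10 UGR past the threshold (-0.13, 0.043).

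Hes5 is a Notch target best known from neural progenitors (chromosome 4, 154335032 to 154336480, plus strand). Its levels were 18.8, 9.24 and 24.6 RPM in E9 AoD, 0.524, 0.278 and 0.261 in E9 AoV, then 2.49, 1.23 and 1.54 in E10 AoD, 0.156, 0.230 and 0.303 in E10 AoV and lastly 0.711, 0.740 and 0.704 in E10 UGR. The order was E9 AoD, E10 AoD, E10 UGR, E9 AoV and E10 AoV, and among neighbours in it E9 AoV and E10 AoV alone overlapped. At E9.5 it was lower ventrally than dorsally by a log2 fold change of -5.22 (SE 0.33, limma adjusted p = 1.25e-08), with mean RPM 49.5-fold apart. At E10.5 the ventral domain was again lower (-2.46, SE 0.33, adjusted p = 2.96e-05). Within the dorsal domain Hes5 fell by 3.20 with stage (SE 0.33, adjusted p = 1.21e-06), whereas the ventral change of -0.44 did not pass (adjusted p = 0.299). E10 UGR lay between the aortic domains, above E10 AoV (E10 AoV against E10 UGR -1.34, adjusted p = 0.00658) and below E10 AoD (E10 AoD against E10 UGR 1.12, adjusted p = 0.0137). With a pseudocount of 1 RPM the difference between E10 AoV and E10 UGR was -0.48 and did not pass (adjusted p = 0.154). Without E10 AoD replicate 1 that between E10 AoD and E10 UGR was 0.85 (adjusted p = 0.0747). Of the merged Hes5 exons, 433 bases (31.8%) lie opposite RP24-89N4.5, a processed transcript on the minus strand, and since no use of strand in counting is stated the reads of both cannot be told apart.

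Hes7 encodes a repressor of the segmentation clock in the presomitic mesoderm (chromosome 11, 68933906 to 68937557, plus strand). It was scarce, at 1.52, 1.91 and 2.63 RPM in E9 AoD, 1.32, 0.487 and 1.14 in E9 AoV, then 0.307, 0.452 and 0.355 in E10 AoD, 0.415, 0.486 and 0.233 in E10 AoV and lastly 0.505, 0.308 and 0.253 in E10 UGR. The 3 groups of E10.5 overlapped, and every E9.5 library lay above every E10.5 aortic library, the nearest being E9 AoV replicate 2 at 0.487 and E10 AoV replicate 2 at 0.486. In the dorsal domain it fell by 2.15 with stage (SE 0.33, limma adjusted p = 5.47e-05). In the ventral domain it fell by 1.12 (SE 0.33, adjusted p = 0.0116), a call lost without E9 AoV replicate 1 (-0.88, adjusted p = 0.0577), E9 AoV replicate 3 (-0.97, adjusted p = 0.0513) or E10 AoV replicate 3 (-0.88, adjusted p = 0.0587). At E9.5 it was lower ventrally by -1.04 (SE 0.33, adjusted p = 0.0171), a call lost without E9 AoD replicate 3 (-0.84, adjusted p = 0.0784) or E9 AoV replicate 2 (-0.64, adjusted p = 0.0960). It passed with a change under 1 in size with a pseudocount of 1 RPM (-0.62, adjusted p = 0.00421) and with array weights (-0.81, 0.0396). Tbx6, a presomitic transcription factor, was among the 3 genes most like Hes7 over the 15 libraries (Pearson r = 0.941). With the summed presomitic and somite markers Hes7 had r = 0.394, and with the summed neural tube markers 0.631. Here 234 bases (12.9%) of the exons lie opposite the noncoding 9130213A22Rik, with the same limit on strand.

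Hey1 and Hey2 encode repressors that act in arterial endothelium, and Heyl is known from vascular smooth muscle and pericytes and from somites. Hey1 (chromosome 3, 8663362 to 8667039, minus strand) was 34.0, 46.7 and 36.7 RPM in E9 AoD, 25.3, 27.0 and 27.3 in E9 AoV, then 51.6, 48.9 and 45.7 in E10 AoD, 44.6, 47.5 and 42.2 in E10 AoV and lastly 49.7, 49.8 and 48.1 in E10 UGR. E9 AoV stood below all other groups, which formed a chain of overlapping ranges. It rose with stage in the ventral domain (0.75, SE 0.091, limma adjusted p = 8.74e-06). The dorsal rise was smaller (0.33, SE 0.091, adjusted p = 0.00628), with E9 AoD replicate 2 inside the E10 AoD range. At E9.5 Hey1 was lower ventrally (-0.55, adjusted p = 0.000163). None of its 3 comparisons within E10.5 passed, with changes of -0.12, -0.14 and -0.02 and adjusted p of 0.328, 0.288 and 0.919.

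Hey2 (chromosome 10, 30552165 to 30562607, minus strand) was 13.2, 17.9 and 14.8 RPM in E9 AoD, 13.5, 16.7 and 15.8 in E9 AoV, then 16.9, 15.1 and 17.4 in E10 AoD, 22.5, 24.3 and 22.9 in E10 AoV and lastly 8.65, 7.83 and 8.76 in E10 UGR. E10 AoV stood above and E10 UGR below every other library, while the other groups overlapped. It rose in the ventral domain with stage (0.60, SE 0.10, limma adjusted p = 0.000272) and at E10.5 was higher ventrally than dorsally (0.50, SE 0.10, adjusted p = 0.00164). Against E10 UGR it was higher in E10 AoV (1.46, adjusted p = 8.82e-08) and in E10 AoD (0.96, adjusted p = 3.04e-06). The dorsal change with stage was 0.11 and the E9.5 difference by position 0.01, neither of which passed (adjusted p = 0.367 and 0.954).

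Heyl (chromosome 4, 122910799 to 122927118, plus strand) was 24.7, 27.5 and 31.7 RPM in E9 AoD, 5.31, 4.20 and 4.25 in E9 AoV, then 68.0, 66.1 and 60.3 in E10 AoD, 26.3, 30.2 and 23.4 in E10 AoV and lastly 19.6, 22.8 and 19.0 in E10 UGR. The order was E10 AoD, E9 AoD, E10 AoV, E10 UGR and E9 AoV, with overlap between E9 AoD and E10 AoV alone among neighbours. It was the gene of the 10 with the largest ventral rise, 2.51 (SE 0.12, limma adjusted p = 7.67e-10), and it also rose dorsally, by 1.22 (SE 0.12, adjusted p = 5.64e-07). Ventral levels were lower at E9.5 (-2.58, SE 0.12, adjusted p = 8.54e-10) and at E10.5 (-1.29, SE 0.12, adjusted p = 5.25e-07). E10 AoD exceeded E10 UGR by 1.66 (adjusted p = 3.03e-08). The smaller excess of E10 AoV over E10 UGR, 0.38 (SE 0.12, adjusted p = 0.0247), did not pass without E10 AoV replicate 1 (adjusted p = 0.0585) or 2 (0.124), or without E10 UGR replicate 1 (0.0805) or 3 (0.0951). Smooth muscle and pericyte markers moved with Heyl by stage: in the ventral domain 7 of 8 rose and their sum went from 569 to 575 RPM at E9.5 to 1086 to 1146 RPM at E10.5, and in the dorsal domain 8 of 8 rose, from 158 to 257 RPM to 763 to 911 RPM. By position they did not follow it, since at E9.5 6 of 8 were higher ventrally, where Heyl was lower. The part of these cells in the Heyl levels was not tested.

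Nrarp, the feedback inhibitor (chromosome 2, 25036278 to 25038850, plus strand), was 56.3, 62.2 and 84.2 RPM in E9 AoD, 17.3, 16.7 and 19.6 in E9 AoV, then 40.9, 35.7 and 34.4 in E10 AoD, 26.0, 26.7 and 25.8 in E10 AoV and lastly 26.8, 25.3 and 21.8 in E10 UGR. Its groups were ordered E9 AoD, E10 AoD, E10 AoV, E10 UGR and E9 AoV, and only E10 AoV and E10 UGR overlapped as neighbours. At E9.5 the ventral level was lower by -1.90 (SE 0.12, limma adjusted p = 1.55e-08), a 3.78-fold difference of mean RPM, and at E10.5 by -0.49 (SE 0.12, adjusted p = 0.00522). With stage it fell dorsally by 0.85 (SE 0.12, adjusted p = 3.19e-05) and rose ventrally by 0.55 (SE 0.12, adjusted p = 0.00191). E10 AoD exceeded E10 UGR (0.59, adjusted p = 0.00132), and the 0.09 between E10 AoV and E10 UGR did not pass (adjusted p = 0.634).

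Of the Fringe genes, Lfng is itself a clock gene in the presomitic mesoderm (chromosome 5, 141083295 to 141091497, plus strand). Its levels were 17.3, 19.2 and 28.9 RPM in E9 AoD, 2.76, 3.22 and 4.63 in E9 AoV, then 9.91, 8.05 and 7.77 in E10 AoD, and 5.16, 6.39 and 6.45 in E10 AoV. In E10 UGR its mean was 9.47 ± 1.12 RPM (SD, n = 3), with 9.62 and 8.28 in replicates 2 and 3. E9 AoD was the highest and E9 AoV the lowest group, both without overlap. As with Nrarp, the stage changes ran in opposite directions, a dorsal fall by 1.31 (SE 0.20, limma adjusted p = 5.01e-05) and a ventral rise of 0.77 (SE 0.20, adjusted p = 0.00512). The ventral level at E9.5 was lower by -2.59 (SE 0.20, adjusted p = 7.74e-08). At E10.5 the ventral libraries again lay below all dorsal ones, with a change of -0.51 that did not pass (SE 0.20, adjusted p = 0.0592). It passed under TMM scaling (-0.54, adjusted p = 0.0426), quantile normalization (-0.56, 0.0390), array weights (-0.55, 0.0188), a fit of the groups compared alone (-0.51, 0.0115) and with the replicate number as a block within each stage (-0.51, 0.00336). E10 AoV was also below E10 UGR (-0.65, SE 0.20, adjusted p = 0.0223), which did not pass without E10 AoV replicate 1 (adjusted p = 0.0935) or E10 UGR replicate 1 (0.0844) or 2 (0.0603).

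Mfng (chromosome 15, 78586312 to 78603905, minus strand) was 20.6, 18.3 and 19.4 RPM in E9 AoD, 13.4, 13.3 and 12.9 in E9 AoV, then 27.8, 21.7 and 26.7 in E10 AoD, 17.7, 18.3 and 16.4 in E10 AoV and lastly 12.1, 11.6 and 13.5 in E10 UGR. It rose with stage in both the dorsal (0.38, SE 0.088, limma adjusted p = 0.00193) and the ventral domain (0.40, SE 0.088, adjusted p = 0.00179). The ventral level was lower at E9.5 (-0.55, adjusted p = 0.000113) and at E10.5 (-0.53, adjusted p = 0.000216). It passed in all 6 pairwise comparisons, both aortic domains being higher than E10 UGR (0.49, adjusted p = 0.000570, for E10 AoV and 1.02, adjusted p = 2.65e-07, for E10 AoD). Rfng (chromosome 11, 120642060 to 120645521, minus strand) was 27.1, 24.7 and 25.1 RPM in E9 AoD, 26.0, 20.0 and 20.9 in E9 AoV, then 26.5, 23.8 and 24.1 in E10 AoD, 24.2, 22.9 and 24.3 in E10 AoV and lastly 21.4, 23.8 and 25.4 in E10 UGR. It passed in none of the 6, its largest change being -0.21 at E9.5 (SE 0.090, adjusted p = 0.0693), and all neighbouring groups overlapped. That -0.21 passed at -0.24 under TMM scaling (adjusted p = 0.0325), at -0.28 under quantile normalization (0.0153), at -0.27 with array weights (0.00908) and at -0.32 without E9 AoV replicate 1 (0.00296). With the replicate number as a block within each stage it passed at -0.21 (adjusted p = 0.0232). The ventral change of Rfng with stage, 0.10 (adjusted p = 0.377), passed with array weights (0.17, 0.0153) and without E9 AoV replicate 1 (0.22, 0.0323).

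**Figure D2:**
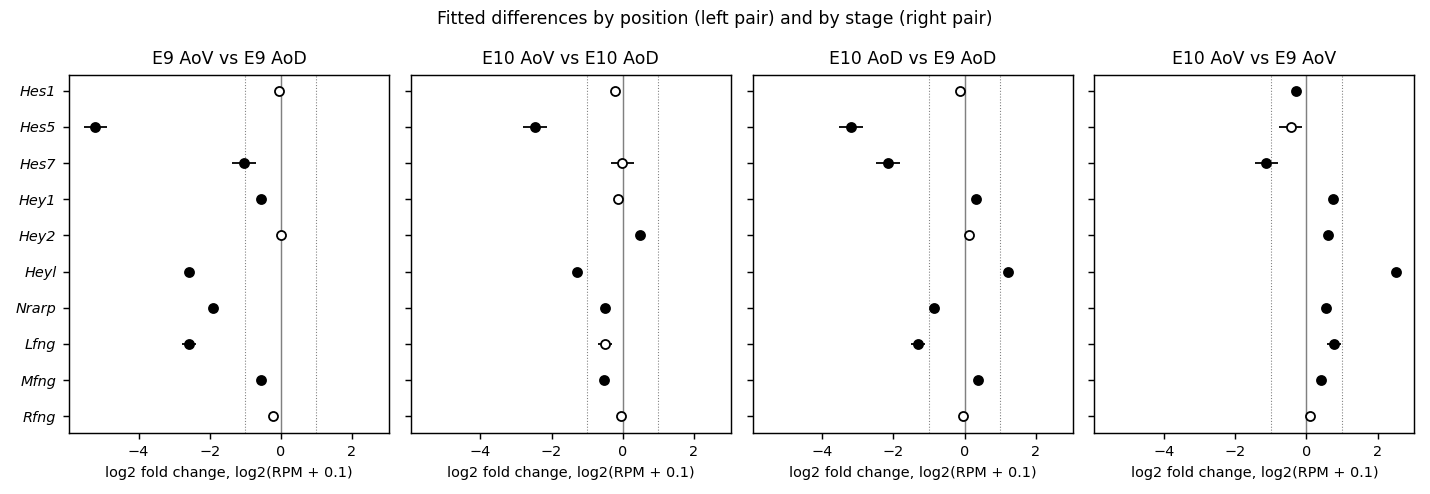
Fitted log2 fold changes of the 10 genes with their SE, for position at E9.5 and E10.5 and for stage in the dorsal and ventral domain. Filled points passed an adjusted p of 0.05, dotted lines mark a change of 1 in size, and the E9.5 differences by position reach -5.22 for Hes5.

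Setting E9 AoV against E9 AoD asked how the domains differ before the later stage. No target or Fringe gene was higher ventrally, and 7 of the 10 were lower: Hes5, Lfng, Heyl, Nrarp, Hes7, Mfng and Hey1. Over all tested genes 27.5% passed higher and 20.1% passed lower. Of the 10, 5 were called lower (4 with array weights or a pseudocount of 1 RPM, Hes7 being lost) and 0 higher, where 3.47% of tested genes were called lower and 8.32% higher. The median change of the 10 was -0.79, beside 0.02 over all tested genes. Under quantile normalization the called genes split 1200 higher to 820 lower in place of 1544 to 643. Ranges did not overlap for 7 of the 10, beside 51.3% of tested genes. All 10 neural tube markers were lower too, from 221 to 401 RPM in E9 AoD to 20.8 to 26.2 RPM in E9 AoV. So were 10 of 12 presomitic and somite markers, from 493 to 502 RPM to between 58.25 and 87.25 RPM. Of that E9 AoD sum Meox1 was 270 to 306 RPM and Tbx6 2.51 to 3.42 RPM. All 12 endothelial markers were higher in E9 AoV, as were all 8 hematopoietic, 7 of 8 gut endoderm and liver and 6 of 8 smooth muscle and pericyte markers. All 6 neural crest and 5 of 8 nephric and coelomic markers were lower in E9 AoV. Their part in these differences was not tested.

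At E10.5, in E10 AoV against E10 AoD, Hes5, Heyl, Mfng and Nrarp were lower ventrally and Hey2 was higher. That is 4 lower and 1 higher of 10, beside 15.3% and 20.2% of all tested genes, with 2 called lower (Hes5 and Heyl) beside 4.29% and 0 called higher beside 5.81%. The median change of the 10 was -0.36 against 0.02 over all genes, and 6 of 10 had ranges without overlap, beside 49.5%. Of 12 endothelial markers 1 passed, with sums of 1202 to 1274 RPM dorsally and 1203 to 1269 RPM ventrally. Neural tube markers were lower ventrally for 9 of 10 (85.0 to 111 RPM against 16.9 to 21.6 RPM), with Sox1, Neurog1 and Dbx1 under 3 reads in every E10 AoV library, and all 6 neural crest and 7 of 12 presomitic and somite markers were lower too. Of nephric and coelomic markers 8 of 8 were higher ventrally, and of hematopoietic markers 5 of 8. Their part was not tested.

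In the dorsal domain, between E9 AoD and E10 AoD, Hes5, Hes7, Lfng and Nrarp fell and Heyl, Mfng and Hey1 rose. That is 7 of 10 in either direction, beside 57.8% of tested genes. Hes5, Hes7, Lfng and Heyl were called, which is 4 of 10 beside 12.6%. Ranges were without overlap for 6 of 10, beside 60.7%, and the median change was -0.08 beside -0.00187 over all genes. Over the same interval 9 of 10 neural tube markers and 9 of 12 presomitic and somite markers fell, while all 12 endothelial, 8 smooth muscle and pericyte, 8 hematopoietic and 6 neural crest markers rose. The presomitic markers Msgn1 and Mesp1 were under 3 reads in every E10 AoD library. Their part was not tested.

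Ventrally, between E9 AoV and E10 AoV, 6 of the 10 rose (Heyl, Lfng, Hey1, Hey2, Nrarp and Mfng) and Hes7 and Hes1 fell, where 23.6% of all genes rose and 22.4% fell. Heyl was the gene called higher (6.04% of tested genes were) and Hes7 the gene called lower (4.99% were). Ranges were without overlap for 8 of 10, beside 55.0%, and the median change was 0.48 beside -0.00163. Here 6 of 12 endothelial markers rose and 1 fell, and 7 of 8 smooth muscle and pericyte markers rose. Of gut endoderm and liver markers 7 of 8 fell, their sum going from 487 to 711 RPM to 15.5 to 15.7 RPM. Sox17 made up 12.1 to 13.2 RPM of the later sum. Presomitic and somite markers fell for 8 of 12 and rose for 2, and neural tube markers fell for 5 of 10 and rose for 1. Of hematopoietic markers 5 of 8 rose, as did 6 of 8 nephric and coelomic markers, whose sum went from 57.0 to 63.3 RPM to 415 to 447 RPM. Most of that E10 AoV sum was Wt1 (214 to 234 RPM), Lhx9 (111 to 121 RPM) and Nr5a1 (62.2 to 69.0 RPM). Pax8 and Pax2 there were 7.10 to 8.84 RPM and 3.91 to 6.43 RPM, against 51.3 to 57.1 RPM and 28.9 to 35.8 RPM in E10 UGR. The part of all these markers was not tested.

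**Figure D3:**
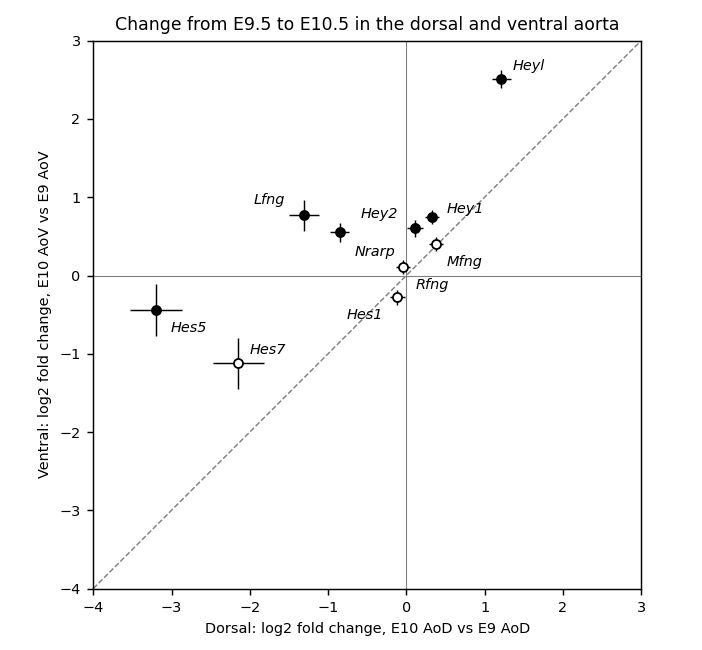
Change from E9.5 to E10.5 of each gene in the dorsal domain (horizontal) and the ventral domain (vertical), as log2 fold change with SE. The dashed line marks equal change, filled points are the 6 genes whose ventral and dorsal changes differed by the interaction test, and Lfng and Nrarp sit in the quadrant of a dorsal fall and a ventral rise.

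Whether the stage change differed between domains was tested by the interaction term, the ventral change minus the dorsal one. It passed for 6 of the 10 in the positive direction and for 0 in the negative, beside 11.8% and 16.3% of tested genes. Calls were 4 positive and 0 negative, beside 4.12% and 6.89%. The values were 2.76 for Hes5 (SE 0.47, limma adjusted p = 0.000423), 2.08 for Lfng (SE 0.28, adjusted p = 5.82e-05), 1.40 for Nrarp (SE 0.17, adjusted p = 2.71e-05) and 1.30 for Heyl (SE 0.16, adjusted p = 3.45e-05). For all 4 the ventral mean was the lower one at both stages, and the log2 difference was smaller at E10.5, while for Heyl the difference in mean RPM was not. Those of Hey2 (0.49, SE 0.15, adjusted p = 0.0229) and Hey1 (0.42, SE 0.13, adjusted p = 0.0223) were smaller. Hey2 did not pass without E9 AoV replicate 1 (0.40, adjusted p = 0.0540), E10 AoD replicate 2 (0.43, 0.0568) or E10 AoV replicate 2 (0.45, 0.0551), nor Hey1 without E10 AoD replicate 3 (0.38, 0.0564) or E10 AoV replicate 2 (0.38, 0.0580). Hes7 had 1.03 (SE 0.46, adjusted p = 0.119), and Hes1, Rfng and Mfng had -0.16, 0.15 and 0.02 with adjusted p of at least 0.430. An interaction in the same direction was found for 8 of 10 neural tube and 8 of 8 nephric and coelomic markers. It ran in the opposite one for all 12 endothelial, 7 of 8 gut endoderm and liver and 5 of 6 neural crest markers. So it did for 5 of 8 smooth muscle and pericyte, 5 of 8 hematopoietic and 1 of 10 neural tube markers. Of 12 presomitic and somite markers 2 were positive, 2 negative and 8 did not pass. Their part was not tested.

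The urogenital ridges served as the E10.5 tissue beside the aorta. E10 AoV exceeded E10 UGR in Hey2, Mfng and Heyl and lay below it in Hes5 and Lfng, which is 3 and 2 of 10 beside 12.5% and 16.6% of tested genes. Hey2 was called higher (3.84% of tested genes were) and Hes5 lower (3.73% were). From E10 AoD to E10 UGR the picture was one-sided, with Heyl, Hes5, Mfng, Hey2 and Nrarp higher in E10 AoD and 0 of 10 lower, beside 14.5% and 24.8%. Calls were 3 higher and 0 lower, beside 4.76% and 6.56%, and without E10 AoD replicate 1 only Heyl remained past the fold of 2. Ranges were without overlap for 6 and 5 of 10, beside 48.6% and 50.9%. Both comparisons share the E10 UGR libraries. Of 12 endothelial markers 11 were higher in either aortic domain than in E10 UGR, and 7 of 8 smooth muscle and pericyte markers. In E10 AoD 1 endothelial marker was lower, as was 1 smooth muscle and pericyte marker, Rgs5 (30.6 to 35.5 RPM against 124 to 128 RPM). Hematopoietic markers were mixed, with 5 of 8 higher and 1 lower in E10 AoV and 3 higher and 2 lower in E10 AoD. Neural tube markers were higher for 8 of 10 and neural crest markers for 6 of 6 in E10 AoD than in E10 UGR, whereas in E10 AoV 3 of 10 and 5 of 6 were lower. A further neural tube marker, 1 of the 10, was higher in E10 AoV. Presomitic and somite markers were lower in E10 AoV for 7 of 12 and higher in E10 AoD for 4 of 12, where 1 was lower. Nephric and coelomic markers were lower for 6 of 8 in E10 AoV and 8 of 8 in E10 AoD. In E10 AoV 1 of them, Lhx9, was higher (111 to 121 RPM against 48.7 to 60.8 RPM). Their part was not tested.

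Levels of different genes were compared per kilobase of merged exon. Of the sum of Hes1, Hes5 and Hes7, other Hes genes not being counted, Hes1 made up 90.6% to 97.0% of the RPM per kilobase on average in all groups but E9 AoD, where it made up 54.2% ± 9.87 (SD, n = 3) and Hes5 42.0% ± 10.3. Hes5 made up 1.61% ± 0.512 in E9 AoV and 8.10% ± 2.75 in E10 AoD. It made up 1.34% ± 0.506 in E10 AoV and 3.71% ± 0.353 in E10 UGR. The sum of these 3 per kilobase was 29.6 ± 6.81 in E9 AoD and between 12.7 and 15.9 in the other groups. Among the Hey genes Hey1 had the largest share in every group, from 53.6% ± 0.781 in E10 AoD to 75.4% ± 0.365 in E10 UGR. Heyl ranged from 4.77% ± 0.923 in E9 AoV to 30.7% ± 0.767 in E10 AoD, and Hey2 from 11.1% ± 0.858 in E10 UGR to 31.7% ± 1.84 in E9 AoV. Among the Fringe genes Rfng had the largest share in E10 AoD (44.0% ± 1.80), E9 AoV (58.9% ± 4.24), E10 UGR (52.6% ± 2.95) and E10 AoV (52.1% ± 1.96). In E9 AoD the shares of Rfng (38.8% ± 4.25) and Lfng (35.4% ± 6.79) overlapped between libraries, and Lfng was down to 10.3% ± 3.10 in E9 AoV.

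**Figure D4:**
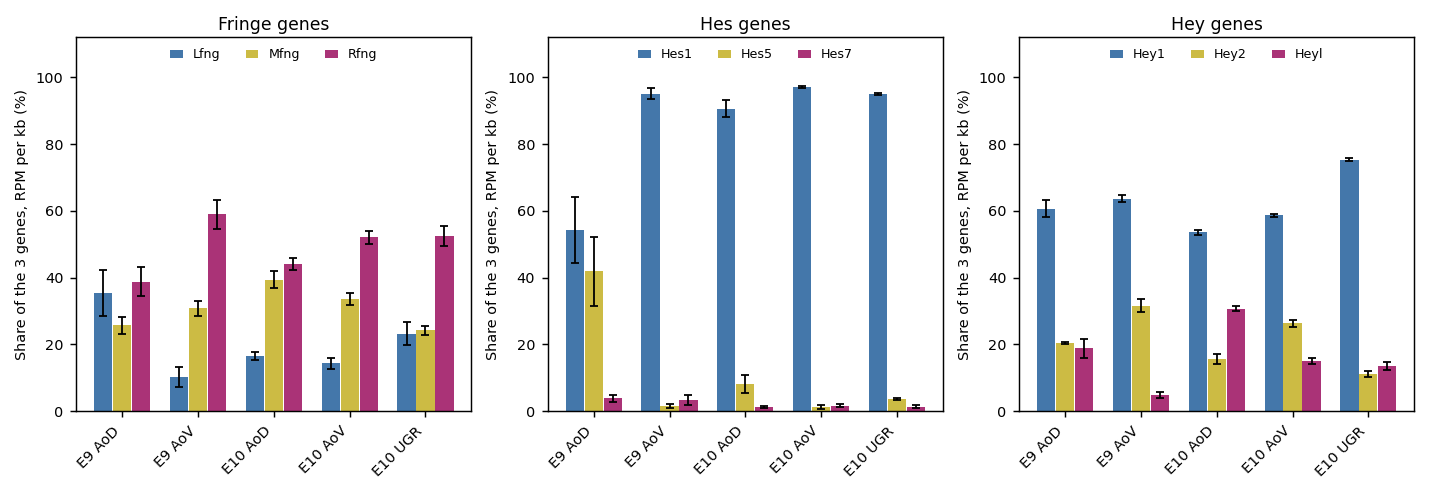
Share of each gene in the summed RPM per kilobase of Hes1, Hes5 and Hes7, of the Hey genes or of the Fringe genes, as the mean of 3 libraries with its SD. Hes5 is at 42.0% of the sum of Hes1, Hes5 and Hes7 in E9 AoD and at 8.10% or less elsewhere.

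Across the 15 libraries, which share groups, Nrarp and Lfng were the most alike of the 10 (Pearson r = 0.921 of log2 values), followed by Hes5 and Nrarp (0.912), Hes5 and Lfng (0.863) and Hey1 and Heyl (0.831). After group means were removed Nrarp and Lfng kept r = 0.875, whereas the other pairs had 0.384, 0.266 and 0.219. E9 AoD replicate 3 was the highest of its group for Hes5, Hes7, Heyl, Nrarp and Lfng. The same library had the highest neural tube sum, 401 RPM. With the neural tube sum over the 15 libraries r was 0.95 for Hes5, 0.927 for Nrarp, 0.777 for Lfng, 0.655 for Mfng and 0.631 for Hes7. It was 0.54 for Hes1, 0.516 for Rfng, 0.479 for Heyl, 0.0836 for Hey2 and 0.0707 for Hey1. With the presomitic and somite sum r was 0.87 for Hes5, 0.77 for Nrarp, 0.763 for Lfng, 0.528 for Hes1 and 0.515 for Heyl. For Rfng it was 0.468, for Mfng 0.467, for Hes7 0.394, for Hey1 0.262 and for Hey2 -0.368. With the hematopoietic sum r was -0.95 for Hes5, -0.855 for Nrarp, -0.803 for Hes7, -0.746 for Lfng and -0.586 for Hes1. The others had -0.427 (Rfng), -0.416 (Mfng), -0.209 (Heyl), 0.146 (Hey1) and 0.00601 (Hey2) with it. In E10 UGR most of that sum was Gata2 (61.8 to 67.5 RPM) and Kit (28.4 to 31.8 RPM). Runx1 there was 3.83 to 5.15 RPM and Gfi1 0.119 to 0.338 RPM. Heyl had its highest positive r with neural crest markers (0.703). Its strongest r in size was with gut endoderm and liver markers (-0.714), as was that of Hey1 (-0.891). These are descriptions over libraries that share tissue, and what produced them was not tested.

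**Figure D5:**
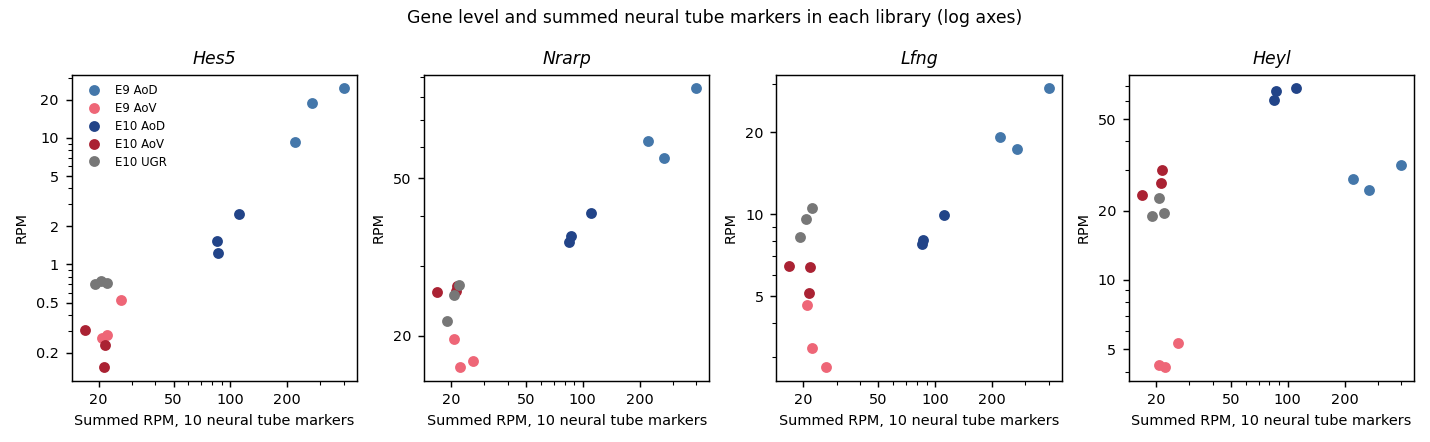
RPM of Hes5, Nrarp, Lfng and Heyl in each library against the summed RPM of 10 neural tube markers, both on log axes, with colours for the 5 groups. For Hes5 and Nrarp the E9 AoD and E10 AoD libraries lie above the other groups on both axes, while for Heyl the E10 AoD libraries lie above those of E9 AoD at a lower marker sum.

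Among all tested genes with a mean of at least 1 RPM, those most like Hes5 over the 15 libraries were Ptchd2 (Pearson r = 0.993), Hoxb9 (0.980) and Fgfbp3 (0.973). Nrarp was followed most closely by Nova1 (0.969), Slc1a2 (0.964) and again Fgfbp3 (0.958). For Heyl they were Foxc2 (0.975), a forkhead factor of somite and vascular mesenchyme, Sncaip (0.974) and 9430031J16Rik (0.970). Lfng was closest to Cnksr3 (0.951), Trak1 (0.948) and 2610017I09Rik (0.946), and Hes7 to Larp1 (0.949), Tbx6 (0.941) and Sdf2l1 (0.937). The genes closest to Hey1 were Vat1l (0.964), Cdh6 (0.960) and Tmem35 (0.955), and to Hey2 Fam13c (0.942), Sost (0.940) and Vim (0.934). Mfng was nearest to Gpsm1 (0.945), Nacad (0.933) and Fbxl16 (0.933). Rfng was nearest to Prdx5 (0.914), Cuta (0.912) and 3200002M19Rik (0.856), and Hes1 to AC154731.1 (0.830), Vcp (0.818) and Epha8 (0.810).

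The rest of the pathway was read from fixed lists of 43 genes, of which 41 were tested: receptors, ligands, the nuclear complex, receptor processing, endocytosis and turnover, and other Hes genes. At E9.5 11 of the 41 were higher and 11 lower ventrally, beside 27.5% and 20.1% of all tested genes, and at E10.5 12 were higher and 9 lower, beside 20.2% and 15.3%. With stage 17 rose and 5 fell ventrally, beside 23.6% and 22.4%, and 16 rose and 10 fell dorsally, beside 57.8% in either direction. Against E10 UGR 10 were higher and 6 lower in E10 AoV, beside 12.5% and 16.6%, and 11 higher and 10 lower in E10 AoD, beside 14.5% and 24.8%. The interaction was positive for 9 and negative for 6, beside 11.8% and 16.3%.

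The receptor Notch1 was 177 ± 15.6 RPM in E9 AoD and 64.8 ± 4.14 in E9 AoV (SD, n = 3), and the only receptor called between them. The ligand gene Dll1 was 63.7 ± 9.17 RPM in E9 AoD and 13.1 ± 4.13 in E9 AoV (-2.31, SE 0.18, limma adjusted p = 1.02e-07), and it fell dorsally with stage to 19.7 ± 3.42 RPM (-1.69, adjusted p = 1.73e-06). Dll3, which encodes a divergent ligand of the presomitic mesoderm, was lower ventrally at E9.5 (-2.43, adjusted p = 4.43e-06) and at E10.5 (-2.87, adjusted p = 1.01e-06). Dll4, the arterial endothelial ligand gene, rose dorsally from 13.2 ± 1.55 to 27.0 ± 2.02 RPM (1.03, adjusted p = 9.12e-08) and was 5.60 ± 0.346 RPM in E10 UGR, below both aortic domains. Jag2 was likewise higher in E10 AoV (1.12, adjusted p = 3.96e-08) and E10 AoD (1.50, adjusted p = 7.08e-10) than in E10 UGR.

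Hes3, a further Hes gene of the neural tube, was 5.89 ± 2.95 RPM in E9 AoD and 0.559 ± 0.151 in E9 AoV (-3.10, limma adjusted p = 6.56e-07), and it was under 3 reads in every E10 AoD and E10 UGR library. It fell ventrally with stage (-1.48, adjusted p = 0.000770), and its interaction of 4.10 (adjusted p = 4.14e-06), which depends on the pseudocount, was the largest of the lists. Dtx4, which encodes a Deltex family protein, fell dorsally with stage (-1.62, adjusted p = 1.51e-07), had an interaction of 1.36 (adjusted p = 9.31e-05) and in E10 AoV exceeded its E10 UGR level (1.74, adjusted p = 2.06e-07). Dtx1, of the same family, was lower in E10 AoV (-1.16, adjusted p = 0.000361) and E10 AoD (-1.87, adjusted p = 2.18e-06) than in E10 UGR. Neurl1a and Neurl1B, for Neuralized ubiquitin ligases that act on ligands, rose dorsally with stage, both by 1.12 (adjusted p = 2.32e-06 and 0.00215). Neurl1B was under 0.7 RPM on average in every group, higher in E9 AoV than in E9 AoD (1.53, adjusted p = 0.000234) and lower in E10 AoD than in E10 UGR (-1.03, adjusted p = 0.00598). Dll1 was also lower in E10 AoV than in E10 AoD (-1.50, adjusted p = 1.03e-05) and than in E10 UGR (-1.51, adjusted p = 1.47e-05).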

How the data were processed

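RNA was measured in 15 libraries, 3 pools for each of 5 dissected groups, taken from the labels. The authors made TruSeq RNA libraries, read 50-base single ends, aligned them to NCBI37/mm9 with TopHat and Bowtie 0.12.3 and counted reads over Ensembl genes with GeneProf, dividing ambiguous reads among genes. The deposited values are RPM, not adjusted for gene length. The deposited table also gives the authors' DESeq log2 fold changes and adjusted p-values (12 columns), which were not used. Since RPM are not counts, log2(RPM + 0.1) was fitted by limma (3.58.1, run in R 4.3.3) to 5 group means over the 15 libraries, using empirical Bayes with an intensity trend and two-sided tests adjusted by Benjamini-Hochberg. A gene was tested if 1 library or more reached 0.5 RPM. The fit was tested on simulated data. Whole reads could not be recovered, as 64.6% to 66.8% of low values were whole within 0.05 read. Floors cover counting error only. Positions come from GENCODE vM1 (NCBIM37), in which 95.3% of IDs were found.

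Same-numbered E9 AoD and E9 AoV libraries deviated together from their group means (r from 0.19 to 0.452 over 3 pairs), so from the data the numbers pair these samples. Pairs of groups within E10.5 had r from 0.0416 to 0.339, and those across stages from -0.138 to 0.216, not all above 0.1. The main fit used no block, so its SE for E9 AoV against E9 AoD leaves that pairing out. With a block within each stage this SE was 0.0725 for Nrarp (main 0.122) and 0.115 for Lfng (main 0.197).

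The 10 genes and all lists were chosen with earlier results of these data known. All 10 are named. From the pathway lists, up to 3 called genes in each direction with the largest changes are named for each comparison, Notch1 and the ligand levels being chosen after their values were seen. For each of the 10, the 3 genes most correlated with it are named. Alternatives were pseudocounts of 0.01 and 1 RPM, TMM scaling, quantile normalization, array weights, other filters, no trend, the compared groups alone, the replicate number as a block over all groups or, added after seeing the data, within each stage, and each library left out in turn.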

Additional observations from a re-analysis of the deposited data

Results flagged for a closer look

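The effect of stage differed between the ventral and the dorsal domain by the interaction test for 6 of the 10 genes, each given here as the ventral minus the dorsal log2 change. For Hes5 the difference was 2.76, from a dorsal change of -3.20 and a ventral one of -0.44. Lfng differed by 2.08, from -1.31 dorsally to 0.77 ventrally. Nrarp differed by 1.40, from -0.85 to 0.55. Heyl differed by 1.30, rising by 1.22 dorsally and by 2.51 ventrally. The difference for Hey2 was 0.49, with changes of 0.11 and 0.60. Hey1 differed by 0.42, with changes of 0.33 and 0.75.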

How the results depend on the processing

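Over the 10 genes and 7 comparisons, 440 of 480 values with 1 library left out and 723 of 749 values under the other 11 alternatives kept their direction and their side of the threshold. In 8 gene comparisons the sign changed under some setting. In the main fit each of these had an adjusted p of at least 0.55 and a change of at most 0.084 in size. They were, with TMM scaling, Hey2 in E9 AoV against E9 AoD (-0.0245) and Hey1 in E10 AoD against E10 UGR (0.0597); with quantile normalization, the same pair at -0.10 and 0.0298; with a pseudocount of 1 RPM, Hes7 in E10 AoV against E10 AoD (0.0039); and with array weights, Hes7 there (0.11), Hes7 in E10 AoD against E10 UGR (-0.0427) and the Mfng interaction (-0.0033). With 1 library left out, ranges that crossed 0 were -0.0913 to 0.13 for Hey2 in E9 AoV against E9 AoD, -0.18 to 0.23 for Hes7 in E10 AoV against E10 AoD, -0.10 to 0.31 for Hes7 and -0.0473 to 0.0758 for Rfng in E10 AoV against E10 UGR, -0.0065 to 0.18 for Hes1, -0.0876 to 0.30 for Hes7 and -0.0573 to 0.0301 for Hey1 in E10 AoD against E10 UGR, and -0.0869 to 0.0911 for the Mfng interaction. The causes were not tested.

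A pseudocount of 1 RPM, which shrinks changes of low genes, left 1 of the 10 called in E10 AoV against E9 AoV, 1 in E10 AoV against E10 UGR, 1 in E10 AoD against E10 UGR and 4 in E9 AoV against E9 AoD. Under it, genes called over the whole table numbered 1104 (main 2046) in E10 AoV against E9 AoV, 1281 (2337) in E10 AoD against E9 AoD, 1196 (2187) in E9 AoV against E9 AoD, 1020 (1874) in E10 AoV against E10 AoD, 735 (1404) and 1143 (2100) in E10 AoV and E10 AoD against E10 UGR, and 1174 (2044) for the interaction. It also took the Hes7 interaction past the threshold (0.62, adjusted p = 0.0453). With no filter on low values 3 of the 10 passed in E10 AoV against E10 UGR (main 5), Heyl and Lfng being lost, and Hes1 was lost in E10 AoV against E9 AoV (adjusted p = 0.0593). With 1 library left out, the number of the 10 that passed ranged from 6 to 8 in E10 AoV against E9 AoV and in E9 AoV against E9 AoD, from 5 to 6 in E10 AoV against E10 AoD, from 3 to 5 and 4 to 5 in E10 AoV and E10 AoD against E10 UGR, and from 4 to 6 for the interaction, and was 7 throughout in E10 AoD against E9 AoD. The number called ranged from 1 to 2 in E10 AoV against E9 AoV, from 4 to 5 in E9 AoV against E9 AoD and from 1 to 4 in E10 AoD against E10 UGR. Hes7 in E10 AoV against E10 AoD could not be fitted with those groups alone, where it failed the filter.

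With the replicate number as a block, genes called over the whole table numbered 2045, 2339, 2188, 1876, 1408, 2102 and 2067 in the order above with the interaction last, and Hes1 passed in E10 AoV against E10 AoD (-0.22, adjusted p = 0.0415). A replicate block within each stage, chosen after seeing the data, was run for the comparisons within a stage and the interaction. It took Rfng in E9 AoV against E9 AoD, Hes1 and Lfng in E10 AoV against E10 AoD and Hes1 in E10 AoV against E10 UGR past the threshold and changed no other call of the 10. Genes called over the whole table then numbered 2188, 1877, 1409, 2107 and 2101, again with the interaction last. Depth limited the values of Hes5 and Hes7, which rest on as few as 6.01 and 8.98 reads in a library.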
